A study of Mus musculus with 8 samples.

Results

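Retinoic acid is made from vitamin A, bound inside cells by carrier proteins and read by nuclear receptors. Transcripts of 9 mouse genes of this pathway were compared between fibroblasts with and without Cbx2, a chromodomain subunit of polycomb repressive complex 1. The genes were taken by symbol from the authors' deposited table, which lists 17441 genes, and all 9 were found. They are the retinol carrier Rbp4, the enzymes Dhrs3, Aldh1a2 and Cyp26b1, the binding proteins Crabp1 and Crabp2, and the receptors Rara, Rarb and Rarg.

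Primary embryonic fibroblasts came from wild-type and Cbx2-/- mouse embryos at embryonic day 18 and were grown to passage 2. The wild-type cells are labelled as litter mates, and no treatment or further allele is named for either genotype. RNA was sequenced in 2 libraries per genotype from 200000 cells each, at about 4.62 Gb per library. Primary fibroblasts are a mixed culture, and whether the 2 libraries per genotype stem from different embryos is not labelled, so p-values may measure technical spread alone.

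Retinol travels in the blood on RBP4 and is oxidised in cells to retinal, and DHRS3 turns retinal back into retinol. ALDH1A2 oxidises retinal to retinoic acid, and CYP26B1 breaks retinoic acid down. CRABP1 holds retinoic acid in the cytoplasm and is linked to its breakdown, whereas CRABP2 carries it to the receptors, which bind DNA with retinoid X receptors and switch on targets that include Rarb itself and Hox genes of the front of the body.

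Promoter sequences were read from RefSeq (GRCm38.p6) for 8 of the 9 genes, as the 250 bases before each listed start, which gave 15 starts. Crabp2 was not among them. The letters of a retinoic acid response element were searched on both strands as a pair of half-sites in direct repeat, spaced by 1, 2 or 5 bases. A half-site was AGGTCA or a near form of it, namely GGTTCA or else AGTTCA or else GGGTCA. Only the Rarb window held one, against 0.426% of all 32851 promoters in the table. The element lay 53 to 37 bases before the 1 listed Rarb start with a spacer of 5, a spacing that 0.0883% of promoters held. That start lies inside the gene, which runs from 16430839 to 17082331 on chromosome 14. The outer end of the gene was not searched. The Rarb window is shown with the element in capitals, on the minus strand at chr14:16575477-16575726. It was chosen because Rarb is the receptor gene best known as a target of retinoic acid.

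Rarb: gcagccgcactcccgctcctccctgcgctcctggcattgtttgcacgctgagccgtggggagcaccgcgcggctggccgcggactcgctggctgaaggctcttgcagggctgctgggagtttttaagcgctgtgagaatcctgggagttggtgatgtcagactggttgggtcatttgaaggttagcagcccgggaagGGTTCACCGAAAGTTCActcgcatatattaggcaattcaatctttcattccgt

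The Crabp1 window, on the plus strand at chr9:54764498-54764747, is shown because this gene had the smallest adjusted p of the 9 genes. Its capitals mark GC boxes, the letters GGGCGG on either strand, of which it held 5. Such a box was present in 32.7% of all promoters and in 7 of the 15 windows here. Some of these windows overlap, and 2 Rara windows hold the same 4 boxes, so the 15 are not separate sequences. The Rarb window held no GC box. A match describes letters in a window and is not a measured binding site.

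Crabp1: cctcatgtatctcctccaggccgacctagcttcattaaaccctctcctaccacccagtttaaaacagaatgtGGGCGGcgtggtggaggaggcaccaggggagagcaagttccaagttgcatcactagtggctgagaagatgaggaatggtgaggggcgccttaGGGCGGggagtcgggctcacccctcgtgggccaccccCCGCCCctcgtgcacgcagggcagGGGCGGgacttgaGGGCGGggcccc

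The deposited table gives 1 value per genotype. Whole reads per library were recovered from it for 13393 genes, the 9 retinoid genes included, and are given below divided by each library's size factor ("scaled reads"). Libraries of a genotype are called A and B, letters that stand for no replicate number. The targeted gene was checked first. Cbx2 had 324 and 355 reads in the wild-type libraries and 27 and 25 in the knockout libraries. The log2 fold change of Cbx2 in the authors' deposited table was -3.58 (DESeq2 adjusted p = 2.55e-44). Size factors ran from 0.935 to 1.03, and the 13372 recovered genes with a mean up to 1000 held 2699035 to 2997507 reads per library.

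Among the 9 genes Crabp2 rose, and Crabp1, Rbp4 and Dhrs3 fell, by the adjusted p of the authors' deposited table, called at under 0.05. The share called was 44.4%, against 7.78% of all 17441 genes and 10.3% of the 13034 genes with a mean value of 10 or more, a level that all 9 genes passed. Over all genes 3.48% rose and 4.3% fell. By limma on the recovered reads the same 4 genes were called, against 21.7% of 8986 genes, and by the authors' 2-fold labels Crabp2 was up and Rbp4 down, against 1.69% of all genes. At an unadjusted p under 0.05 the share over all genes was 14.6%, and the same 4 of the 9 genes passed. The median log2 fold change of the 9 genes was 0.042, against 0.0036 over all genes. Aldh1a2, Cyp26b1, Rara, Rarb and Rarg were not called. In these cultures a smaller number of cells that express a gene and less RNA per cell cannot be told apart.

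**Figure D1:**
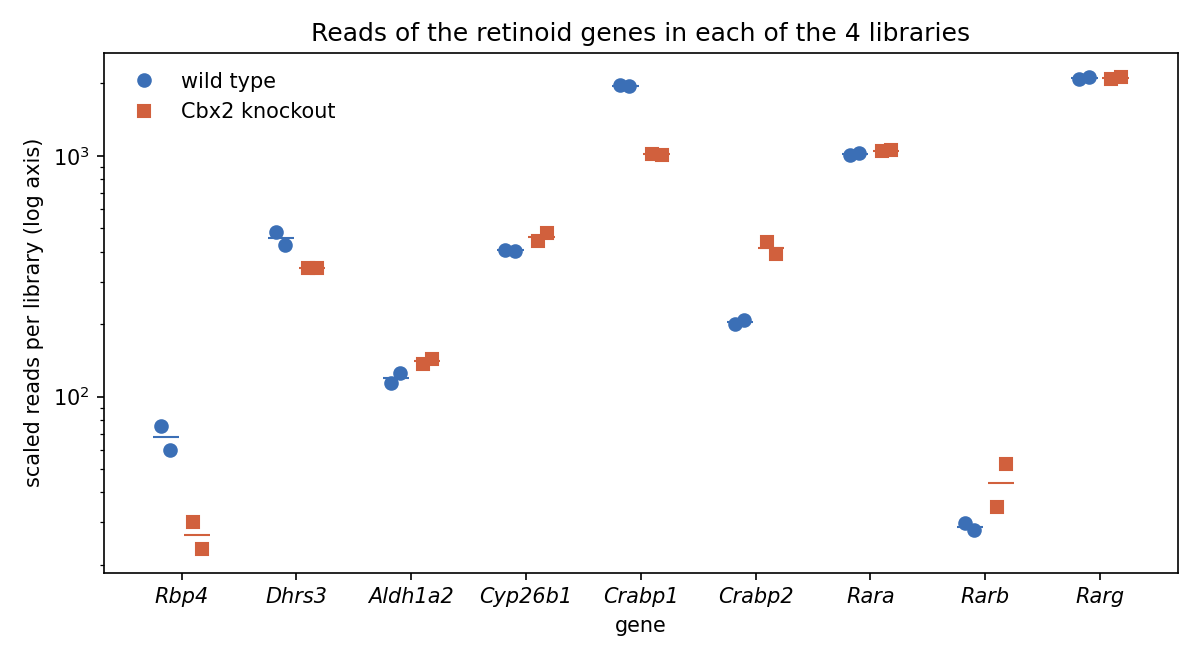
Scaled reads (log axis) of the 9 genes in each of the 4 libraries. Circles are wild-type and squares knockout libraries, horizontal lines are means of 2 libraries. Crabp1 sits near 1959 in wild type and 1016 in knockout, Crabp2 near 204 and 415, and only the Rarg libraries of the genotypes overlap.

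The retinol carrier was lower in knockout. Rbp4 (gene 19662, chromosome 19 from 38116620 to 38125321 in GRCm38.p6) had 75.5 and 59.9 scaled reads in wild type against 30.0 and 23.3 in knockout. Both knockout libraries lay under both wild-type libraries, with a 2.54-fold lower mean. The log2 fold change of Rbp4 was -1.18 (standard error 0.36 implied by the p) in the authors' deposited table, with a DESeq2 adjusted p of 0.0149. That fold change is shrunken toward 0, and the reads gave -1.35 (95% interval -2.14 to -0.55) for Rbp4. These are few reads, 76 and 56 against 31 and 24, and the Rbp4 call was lost with 10% added spread between libraries (adjusted p = 0.0746).

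Dhrs3, the enzyme that returns retinal to retinol, fell by a smaller amount. Dhrs3 (gene 20148, chromosome 4 from 144892534 to 144928209) had 485 and 428 scaled reads in wild type against 343 and 343 in knockout. The knockout libraries nearly coincided, and the wild-type libraries lay above them and apart from each other. In the authors' deposited table Dhrs3 had a log2 fold change of -0.40 (implied standard error 0.14), with a DESeq2 adjusted p of 0.0434. The call of Dhrs3 was lost with columns scaled to equal totals (adjusted p = 0.0891) and with 10% added spread (0.677). It was also lost in limma without wild-type library A (adjusted p = 0.0530) and without knockout library B (0.0510). The opposite step, retinol to retinal, is carried out by Rdh10, chosen here after its values were seen. The ratio of Dhrs3 to Rdh10 in scaled reads per kilobase was 2.18 and 1.74 in the wild-type libraries and 1.25 and 1.38 in the knockout libraries, and the ranges did not overlap.

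The enzyme that makes retinoic acid did not pass the test. Aldh1a2 (gene 19378, chromosome 9 from 71215789 to 71296243) had 114 and 125 scaled reads in wild type against 136 and 144 in knockout. The knockout libraries were the higher ones, without overlap. The log2 fold change of Aldh1a2 was 0.22 (implied standard error 0.22) in the authors' deposited table, with a DESeq2 adjusted p of 0.906. The interval from the reads, -0.23 to 0.69, holds 0 and also a rise of 1.61-fold. Together the 3 retinal dehydrogenase genes Aldh1a1, Aldh1a2 and Aldh1a3 had 100.4 and 107 scaled reads per kilobase in wild type against 118 and 130 in knockout. Aldh1a2 made up 50.9% ± 0.926 (SD, n = 2) of that sum in wild type and 49.8% ± 1.57 (SD, n = 2) in knockout, with overlapping libraries.

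The enzyme that removes retinoic acid did not pass the test either. Cyp26b1 (gene 232174, chromosome 6 from 84571414 to 84593908) had 407 and 403 scaled reads in wild type against 442 and 478 in knockout. The knockout libraries were higher without overlap. In the authors' deposited table Cyp26b1 had a log2 fold change of 0.18 (implied standard error 0.13), with a DESeq2 adjusted p of 0.684 and an interval of -0.075 to 0.44 from the reads. Its relatives Cyp26a1 and Cyp26c1 were at the limit of detection, with 2, 0, 0 and 0 reads for Cyp26a1 and 0, 1, 0 and 0 for Cyp26c1 in wild-type A and B and knockout A and B. Per kilobase the ratio of Aldh1a2 to Cyp26b1 was 0.616 ± 0.0440 (SD, n = 2) in wild type and 0.635 ± 0.0123 (SD, n = 2) in knockout, and the libraries overlapped.

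The cellular binding proteins moved in opposite directions. Crabp1 (gene 12903, chromosome 9 from 54764748 to 54773110) had 1973 and 1946 scaled reads in wild type against 1019 and 1013 in knockout. The libraries of each genotype lay close together, and the genotypes did not overlap. The log2 fold change of Crabp1 was -0.94 (implied standard error 0.075) in the authors' deposited table, with a DESeq2 adjusted p of 1.28e-33, and its unadjusted p ranked 52 among all genes. The reads of Crabp1 gave -0.95 (95% interval -1.09 to -0.80), short of the 2-fold change that the authors' up and down labels require.

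Crabp2 (gene 12904, chromosome 3 from 87948693 to 87953372) had 201 and 207 scaled reads in wild type against 439 and 392 in knockout. Both knockout libraries lay above both wild-type libraries, with a 2.04-fold higher mean. For Crabp2 the authors' deposited table gives a log2 fold change of 1.00 (implied standard error 0.16), with a DESeq2 adjusted p of 7.26e-09. The reads of Crabp2 gave 1.03 (95% interval 0.71 to 1.34). With 20% added spread between libraries neither gene was called (adjusted p = 0.139 for Crabp1 and 0.174 for Crabp2). The spread in the authors' model that the deposited p implies, counting noise left out, was 4.47% for Crabp1 and 9.23% for Crabp2.

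In scaled reads per kilobase Crabp1 exceeded Crabp2 in every library, by 10.8-fold and 10.3-fold in wild type and by 2.55-fold and 2.84-fold in knockout. On the log2 scale this ratio was 3.40 ± 0.048 (SD, n = 2) in wild type and 1.43 ± 0.11 (SD, n = 2) in knockout. Crabp2 supplied 8.47% and 8.84% of the sum of both genes in wild type, against 28.2% and 26.0% in knockout. The rise of Crabp2 did not make up for the fall of Crabp1, as the sum went from 2619 ± 18.3 (SD, n = 2) to 1703 ± 42.4 (SD, n = 2) scaled reads per kilobase. FABP5 is the other carrier of retinoic acid and takes it to PPAR delta. The ratio of Crabp2 to Fabp5, chosen after its values were seen, was 0.196 and 0.224 per kilobase in wild type against 0.369 and 0.350 in knockout. These ratios are descriptions and were not tested.

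**Figure D2:**
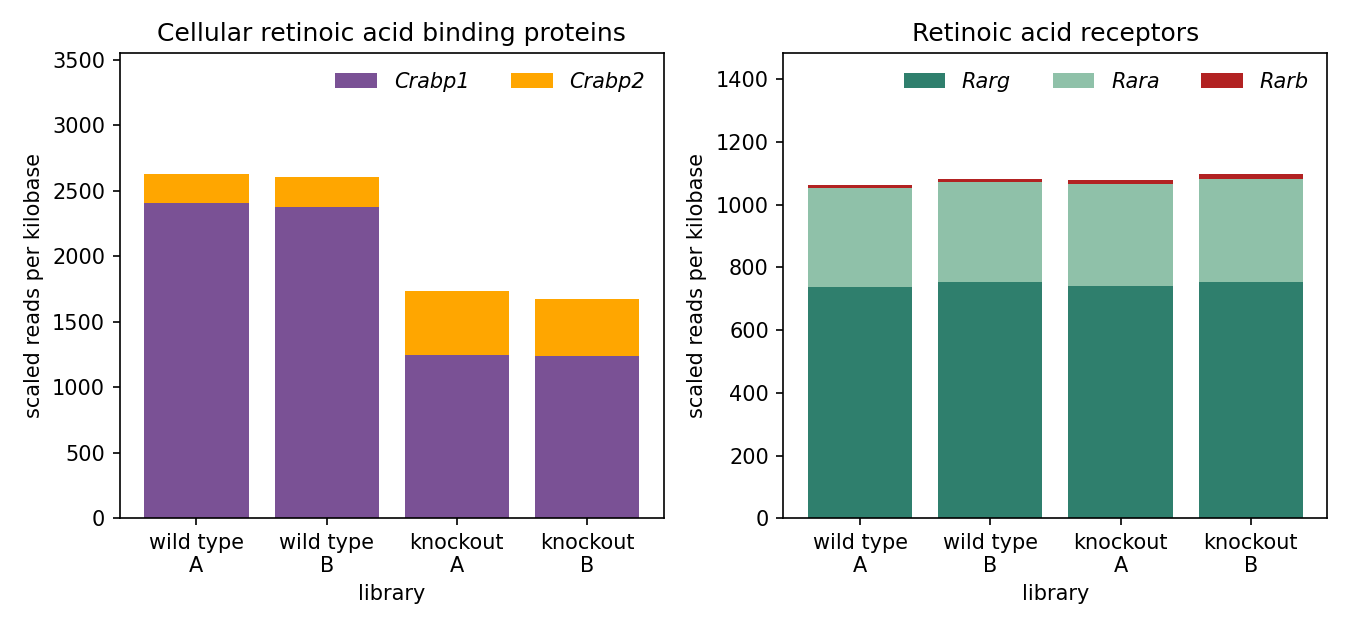
Stacked scaled reads per kilobase in each library, for Crabp1 and Crabp2 (left) and for Rarg, Rara and Rarb (right). The binding protein bars drop from a mean of 2619 in wild type to 1703 in knockout with a larger Crabp2 share, while the receptor bars lie between 1062 and 1099 in all 4 libraries.

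None of the 3 receptor genes passed the test. Rara (gene 19401, chromosome 11 from 98927800 to 98974942) had 1010 and 1033 scaled reads in wild type against 1049 and 1054 in knockout. The knockout libraries were slightly higher without overlap. For Rara the authors' deposited table gives a log2 fold change of 0.042 (implied standard error 0.087), with a DESeq2 adjusted p of 0.936, and the interval from the reads was -0.13 to 0.21.

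Rarg (gene 19411, chromosome 15 from 102234938 to 102257522) had 2092 and 2130 scaled reads in wild type against 2094 and 2136 in knockout. It was the 1 gene of the 9 in which the libraries of the genotypes overlapped. The log2 fold change of Rarg was 0.0028 (implied standard error 0.064) in the authors' deposited table, with a DESeq2 adjusted p of 0.997. The interval from the reads, -0.12 to 0.13, leaves room for a change of up to 1.09-fold.

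Rarb (gene 218772, chromosome 14 from 16430839 to 17082331), the gene whose searched window held the response element letters shown above, had 29.8 and 27.8 scaled reads in wild type against 34.8 and 52.4 in knockout. Knockout library B stood well above knockout library A, and the wild-type libraries were the lower ones without overlap. Its log2 fold change in the authors' deposited table was 0.51 (implied standard error 0.39), with a DESeq2 adjusted p of 0.729. From the reads the estimate was 0.60 (95% interval -0.30 to 1.49), which does not separate no change from a rise of 2.81-fold. In limma it was 0.56 with all libraries, 0.27 without knockout library B and 0.85 without knockout library A. At 26 to 54 reads per library, a difference of that size in Rarb was not resolved.

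Per kilobase the receptors kept their order in every library. Rarg made up 69.5% ± 0.0303 (SD, n = 2) of the receptor sum in wild type and 68.6% ± 0.0246 (SD, n = 2) in knockout. The share of Rara was 29.6% and 30.1%, and that of Rarb 0.884% and 1.32%, as means of the 2 wild-type and the 2 knockout libraries. The sum of the 3 genes was 1072 ± 13.9 (SD, n = 2) scaled reads per kilobase in wild type and 1088 ± 15.5 (SD, n = 2) in knockout, with overlapping libraries.

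**Figure D3:**
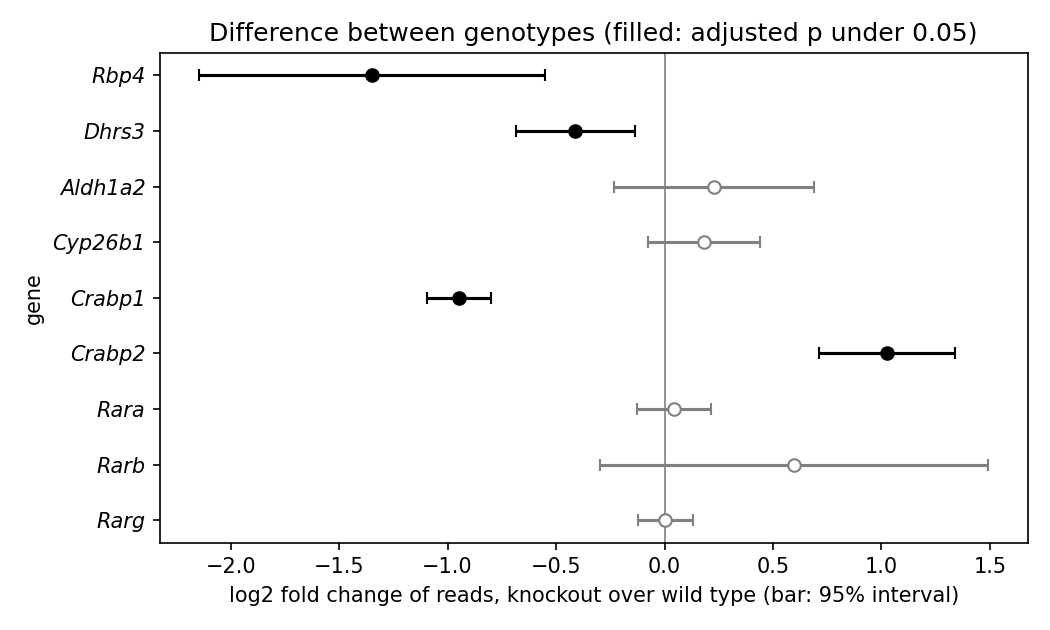
Log2 fold change of the reads, knockout over wild type, for the 9 genes with 95% intervals, not shrunken. Filled points were called in the authors' deposited table. Rbp4, Dhrs3 and Crabp1 lie left of 0 and Crabp2 right of 0, and the widest intervals are those of Rarb and Rbp4.

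Over the 9 genes, mean scaled reads per kilobase of both genotypes ran in the order Crabp1, Rarg, Crabp2, Rara, Dhrs3, Cyp26b1, Aldh1a2, Rbp4 and Rarb, from the first to the last by 153-fold. In wild type Crabp1 stood at 2392 and Rarg at 745 scaled reads per kilobase, and in knockout at 1241 and 747. In wild type Rara (317) and Dhrs3 (274) stood above Crabp2 (227), whereas in knockout Crabp2 (462) stood above Rara (327) and Dhrs3 (206). Rbp4 (72.8) stood above Aldh1a2 (52.8) in wild type and below it in knockout (28.6 and 61.8). The other neighbours in the order were apart in every library. The libraries of the genotypes did not overlap in 8 of the 9 genes, 5 higher and 3 lower in knockout. That is a weak mark with 2 libraries a group, since 56.3% of 8965 recovered genes with a mean of 10 to 1000 did the same. The spread implied by the deposited p ran from 3.92% to 26.6% of the mean over the 9 genes. It comes from the dispersion of the authors' model, without counting noise, and is not the spread seen between the 2 libraries. For Crabp1 it was 4.47%, where the scaled reads had an SD of 19.4 around 1959 in wild type and 4.27 around 1016 in knockout.

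Among the other genes of retinoid supply and storage, 1 of 9 listed fell and none rose, which is 11.1% against 7.78% of all genes. The gene that fell was Lpl, the most abundant gene of the list. It encodes the lipoprotein lipase that also releases retinol esters from circulating fat particles. Lpl had 2168 and 1931 reads in wild type against 750 and 815 in knockout. Its log2 fold change was -1.47 in the authors' deposited table (DESeq2 adjusted p = 1.15e-70). It also counts among the adipocyte markers below. The list had a median of 0.18 on the log2 scale, and 5 of its 9 genes had a mean value under 10.

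Of 13 other genes that interconvert retinol and retinal, 0 were called in the authors' deposited DESeq2 table. At an unadjusted p under 0.05 there were 2, and 2 by limma at an adjusted p under 0.05. Over all genes these shares were 7.78% and 14.6%, and by limma 21.7% of the genes it tested. The median of the 13 genes was -0.020. Adh5, an alcohol dehydrogenase and the most abundant of them, had values of 1362 and 1409 in the authors' deposited table. Rdh5, a retinol dehydrogenase named for its values, had 57 and 43 reads in wild type against 26 and 19 in knockout (log2 fold change -1.05 and DESeq2 adjusted p = 0.0766 in the authors' deposited table). For retinal oxidation and retinoic acid breakdown, 0 of 6 other genes were called, also 0 at an unadjusted DESeq2 p under 0.05 and 0 by limma, with a median of -0.067. The most abundant, Aldh1a3, had a log2 fold change of 0.28 in the authors' deposited table, and 4 of the 6 genes had a mean value under 10.

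Retinoid X receptors and the genes that deliver retinoic acid to other receptors had 0 of 4 called by the authors' DESeq2 test. At an unadjusted p under 0.05 there were 2, and 2 by limma. Over all genes these shares were 7.78% and 14.6%, and by limma 21.7% of the genes it tested. Rxra, a partner of all retinoic acid receptors, was the most abundant of the 4, at 2004 and 2091 in the authors' deposited table. Of 13 coregulators that the receptors recruit, 1 rose and 1 fell. That is 15.4%, against 7.78% of all genes and 10.3% of those with a mean value of 10 or more. The median of the coregulators was -0.082. The corepressor Ncor1 had 3472 and 3442 reads in wild type against 3095 and 3331 in knockout (log2 fold change -0.19 and DESeq2 adjusted p = 0.0201 in the authors' deposited table). Tbl1xr1, a subunit of the same corepressor complex, had 516 and 531 reads in wild type against 705 and 713 in knockout (log2 fold change 0.34 and DESeq2 adjusted p = 0.0322 in the authors' deposited table). With 10% added spread 3 calls were left in the lists of related genes, those of Lpl, Rarres1 and Rarres2.

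Of 17 genes known to respond to retinoic acid, 3 rose, 3 fell and 11 were not called. The share called was 35.3%, against 7.78% of all genes and 10.3% of those with a mean value of 10 or more, and the median was -0.0039. By limma 9 of the 17 were called, against 21.7% of the genes it tested, and with 10% and 20% added spread 2 and 1 were. Rarres1, a retinoic acid induced membrane protein, had 238 and 208 reads in wild type against 491 and 489 in knockout (log2 fold change 1.03 and DESeq2 adjusted p = 8.74e-11 in the authors' deposited table). Rarres2, which encodes the secreted protein chemerin, had 323 and 316 reads in wild type against 134 and 142 in knockout (log2 fold change -1.26 and DESeq2 adjusted p = 7.29e-11 in the authors' deposited table). The names of both genes come from their response to retinoids, and they moved apart, so that their ratio per kilobase was 0.370 and 0.330 in wild type against 1.84 and 1.73 in knockout.

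The nuclear receptor gene Nr2f1 rose, with 308 and 289 reads in wild type against 446 and 460 in knockout (log2 fold change 0.50 and DESeq2 adjusted p = 0.00527 in the authors' deposited table). The homeobox gene Meis1 fell, with 606 and 560 reads in wild type against 446 and 429 in knockout (log2 fold change -0.50 and DESeq2 adjusted p = 8.38e-04 in the authors' deposited table). Tgm2, which encodes tissue transglutaminase, also fell (log2 fold change -0.30 and DESeq2 adjusted p = 0.0237 in the authors' deposited table). The third rise was Gprc5a, a receptor gene induced by retinoic acid (log2 fold change 0.26 and DESeq2 adjusted p = 0.0364 in the authors' deposited table). Zfp503, the most abundant of the list, had values of 2608 and 2470 in the authors' deposited table and was not called.

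Of 14 Hox genes of paralog groups 1 to 5, which lie at the retinoic acid responsive end of their clusters, 1 rose and none fell, which is 7.14% against 7.78% of all genes. By limma 7 were called, against 21.7% of the genes it tested, and with 10% added spread of the deposited DESeq2 result 0 were, against 5 at its unadjusted p under 0.05. Hoxa5 had 179 and 164 reads in wild type against 277 and 306 in knockout (log2 fold change 0.66 and DESeq2 adjusted p = 0.00367 in the authors' deposited table). The median log2 fold change of the 14 genes was 0.35, with 9 values above 0 and 5 below. Libraries of the genotypes did not overlap in 13 of them, 9 higher and 4 lower in knockout, against the 56.3% of recovered genes given above. Hoxc5, the most abundant, had a log2 fold change of 0.48 in the authors' deposited table (DESeq2 adjusted p = 0.0567).

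**Figure D4:**
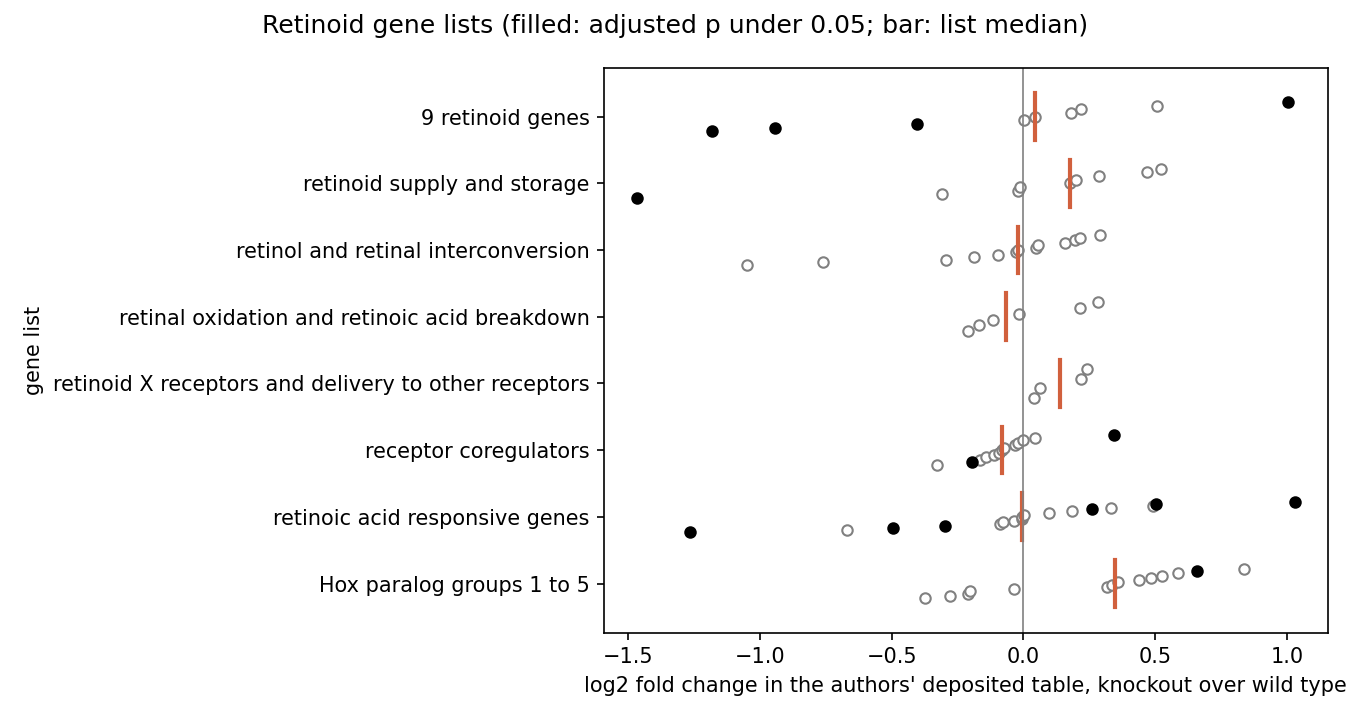
Log2 fold changes of the authors' deposited table for the 9 genes and 7 lists of related genes, 1 point per gene. Filled points passed an adjusted p of 0.05 and vertical bars are list medians. The 9 genes and the responsive genes have filled points on both sides of 0, and the lists of enzymes and of retinoid X receptors have none.

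Markers of several cell types moved between the genotypes along with these genes. Over all genes 7.78% were called, and 10.3% of those with a mean value of 10 or more. Of 10 fibroblast markers 7 fell and 1 rose, and Col1a1, at values of 264489 and 227630 in the authors' deposited table, was high in both genotypes and not called. The largest changes among them were the rise of Thy1 (4928 and 11919) and the falls of Dcn (5774 and 2767) and Lum (620 and 258) in the same table. Of 10 mesothelial markers 3 fell and 1 rose, with summed scaled reads of 897 and 935 in wild type against 643 and 663 in knockout. Without the keratin genes Krt8 and Krt18, which both fell, the sums were 545 and 557 against 568 and 586. Wt1, a defining marker, fell (74.5 and 68.4 against 25.2 and 33.0 scaled reads), and Msln, another, rose (107 and 113 against 228 and 228). Of 7 adipocyte markers 2 fell, Lpl and Pparg, with sums of 3278 and 3281 against 1774 and 1892, and of 1125 and 1217 against 1049 and 1102 without Lpl. Of 14 macrophage markers 9 rose, with sums of 597 and 677 against 1940 and 1906, while Csf1r did not pass the test. Lyz2 alone had 145 and 143 scaled reads in wild type against 944 and 958 in knockout, the largest part of that gain. C1qb had a log2 fold change of -0.57 in the authors' deposited table and was not called. Of 10 endothelial markers Cdh5 and Esam rose, with sums of 256 and 260 against 786 and 743. In the authors' deposited table Cdh5 had values of 61.6 and 324 and Esam of 35.6 and 290. Kdr (60.7 and 48.2) and Egfl7 (85.1 and 73.1) were lower in knockout and not called. Of the 10 log2 fold changes 5 were above 0 and 5 below, and Pecam1 and Emcn had 3 or fewer scaled reads in every library. Of 8 neural crest and glial markers 1 rose and 1 fell, with sums of 1305 and 1409 against 1409 and 1408. The 7 epithelial markers had 0 calls by DESeq2, 0 at an unadjusted p under 0.05, and all had a mean value under 10. The part of these other cell types in the changes of Crabp1, Crabp2, Rbp4, Dhrs3 and Lpl was not tested.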

How the data were processed

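RNA libraries (2 per genotype) were grouped by the genotype in their labels, and accessibility was not analysed here. The table deposited by the authors holds 1 normalised read signal per genotype, a log2 fold change, a p-value and an adjusted p-value for each of 17441 genes, with the gene length in bases. The submitters' processing notes name the genome build mm10 and the tools HISAT2, RSEM, Bowtie2 and DESeq2, without versions or settings. The deposited log2 fold changes equal the log2 ratio of the columns and are shrunken toward 0. The deposited p-values were adjusted over all 17441 genes, and a gene was called at an adjusted p under 0.05. As the table has no counts per library, the authors' own test was used.

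The mean of both columns is a sum of whole reads over 4 libraries, each divided by its size factor. Under a mean of 50 this sum alone fixed the reads (6126 of 6126 genes), and the fold change and p also matched in 2146 of them, Rbp4 and Rarb included. Above 50 the sum, fold change and p together fixed 2260 of 2277, 2669 of 2671 and 2317 of 2318 genes up to 200, 500 and 1000, and above 1000 only genes of the lists were tried, which made 13393 genes in all. Shifted decoy sums under 50 had a match in 0, 3 and 14 of 300 trials each for means up to 20, 35 and 50, and 0 that also matched the fold change and p. Above 50 there were 0 matches in 300, 300, 200 and 40 trials, and in a test on simulated data for knockout versus wild type, 99.7% of 300 genes were recovered and 0% were wrong. Reads may be estimates that were rounded before the test. The unshrunken fold change and its 95% interval used the spread in the authors' model that the deposited p implies.

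As an alternative, limma 3.58.1 (R 4.3.3) was run on log2(scaled reads + 0.5) over the 8986 recovered genes with a mean of 10 or more. Tested on simulated data for knockout versus wild type with 8986 genes, it found 50%, 84%, 80% and 82% of genes changed by 1.5, 2, 3 and 4-fold, and called 5 of 8786 unchanged genes. Its share of genes called leaves out most genes with a mean above 1000, whereas Crabp1, Rara and Rarg lie above 1000. Other alternatives changed the threshold, the genes over which p is adjusted, the spread, the scaling, the pseudocount and the shrinkage, and left out each library. Gene identifiers were matched to RefSeq GRCm38.p6 (17400 found).

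The 9 genes and all lists were chosen with earlier results of these data known. All 9 genes are named, and from each retinoid list up to 5 called genes with the smallest adjusted p and the gene with the highest mean. For 1 list the gene with the highest mean is not reported here. Genes named outside this rule, Gprc5a, Rdh5, Rdh10, Fabp5, Aldh1a1, Cyp26a1, Cyp26c1 and the cell type markers among them, were chosen after their values were seen.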

Additional observations from a re-analysis of the deposited data

How the results depend on the processing

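The 4 calls among the 9 genes became 2 at an adjusted p of 0.01 (Crabp1 and Crabp2), 2 under the authors' 2-fold rule (Crabp2 and Rbp4), 2 with 10% added spread (Crabp1 and Crabp2) and 0 with 20% added spread in the DESeq2-based test, against 4 at an unadjusted deposited p under 0.05 and 4 by limma. The 10 calls among 76 list genes became 6, 3, 3 and 2 under the same settings. By limma, which tested 63 of them, they were 26 (background 21.7%), or 25 with a pseudocount of 2 (21.8%). The 2-fold rule called 1.69% of all genes. For the adjusted p of 0.01 and for added spread, here and above, no share over all genes is given. A drop in calls under those settings therefore cannot be read as particular to these genes. Leaving out 1 library in limma, where the lone library is assumed to vary like the others, gave 3 to 4 calls among the 9 genes, and 11 to 18 among list genes, the 18 without wild-type library A (backgrounds 9.01% to 12.3%). With columns scaled to equal totals the list calls were 10 higher and 3 lower, against 5 and 5. Rarg changed sign when centred on the median of all genes (-7.8e-04), without wild-type library A (-0.010) and without knockout library B (-0.011), never past the threshold, and the other 8 genes kept their direction in all settings run. The cause was not tested. No paired analysis was possible because the recovered libraries carry no replicate numbers. The planned limma fit with no filter was not run on the data, since it called 115 of 13193 unchanged genes when tested on simulated data, against 5 of 8786 with the filter. At 23.3 to 75.5 scaled reads, depth limits what Rbp4 and Rarb can show.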

Other observations

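Beyond the lists above, the deposited annotation marks 84 genes as responding to retinoic acid, a term chosen after the data were seen. Of these, 8 rose and 9 fell in the authors' deposited table, with Rbp4 among the falls. The share called was 20.2%, against 7.78% of all genes and 10.3% of genes with a mean value of 10 or more. The 84 genes were not filtered on the mean, and 11 of them also stand in the lists above. The rises included Ctsh, a lysosomal protease, with 295 and 256 reads in wild type against 932 and 948 in knockout (log2 fold change 1.66 and DESeq2 adjusted p = 1.31e-42 in the authors' deposited table). They also included Ntrk3, the receptor for neurotrophin 3, with 97 and 92 reads in wild type against 231 and 257 in knockout (log2 fold change 1.23 and DESeq2 adjusted p = 1.44e-07 in the authors' deposited table). Gjb2 (0.94), which encodes a gap junction protein, Epha3 (0.76), a receptor for ephrins, and Igfbp2 (0.72), which binds insulin-like growth factors, rose as well in the authors' deposited table.

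Among the falls, Tbx1, a T-box factor of the pharyngeal region, had 29 and 18 reads in wild type against 4 and 2 in knockout (log2 fold change -1.87 and DESeq2 adjusted p = 0.00591 in the authors' deposited table). Pdgfrb (-0.44), Igf2r (-0.45), Tnc (-0.29), Igfbp7 (-0.29), Mmp2 (-0.31) and Runx1 (-0.33) fell by less in the authors' deposited table. Of the 9 genes annotated as binding retinoic acid, Crabp2 rose and Crabp1 and Igf2r fell. That is 33.3%, against 7.78% of all genes, and Crabp1 and Crabp2 were already reported above. Of the 14 genes annotated to the retinoic acid receptor signaling pathway, 14.3% were called.

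The shrinkage in the deposited fold changes was largest for the genes with the fewest reads. Rbp4 stood at 87.7% and Rarb at 85.0% of the fold change of the reads on the log2 scale, and the other 7 genes at 95% or more.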
